A study of Homo sapiens with 4 samples.

Results

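Collagen VI and 5 other collagens that do not form banded fibrils were followed in RNA-seq of HGC27 (HGC-27) cells, a human gastric cancer cell line. The members were the 8 genes COL6A1, COL6A2, COL6A3, COL7A1, COL12A1, COL13A1, COL16A1 and COL18A1, found by symbol among the 25559 genes of the count tables. There were 2 libraries of cells with the genotype wildtype (wt, called control here) and 2 libraries of RUNX3 knock-out cells (RUNX3KO, called RUNX3 KO here) of the same line. Whether the control cells carried a vector is not given in the sources used here. The knock-out cells carried a lentiviral Cas9 and guide against a coding exon of RUNX3 and had passed through puromycin selection and single-cell cloning, so an effect of losing RUNX3 and a trait of the clone cannot be told apart. The number of clones is not given in the sources used here, nor whether replicates were separate cultures. The p-values therefore rest only on the spread between these libraries, which may be technical. That spread is estimated jointly over genes, not from each gene alone. Each library held between 11731401 and 12110876 reads on genes.

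Collagens are proteins of 3 chains wound into a triple helix. Collagen VI is assembled inside the cell from an alpha-1, an alpha-2 and an alpha-3 chain, encoded by COL6A1, COL6A2 and COL6A3, and is secreted as tetramers that join end to end into beaded microfilaments around cells. The other members are built for other places. Collagen VII forms the anchoring fibrils that tie an epithelial basement membrane to the stroma, collagens XII and XVI are associated with the surface of collagen fibrils, collagen XIII spans the plasma membrane, and collagen XVIII is a heparan sulfate proteoglycan of basement membranes whose end is released as endostatin. The comparison of control and RUNX3 KO cells addressed whether these matrix genes change when RUNX3, a Runt domain transcription factor, is disrupted.

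RUNX3 itself had 351 and 308 counts in control and 225 and 185 in RUNX3 KO, which is -0.70 on the log2 scale (SE 0.0961). Its transcript was lower in both RUNX3 KO libraries and still counted in each. The cells showed little of the epithelium that the name of the line implies. Of 13 epithelial markers, 4 were counted enough to be tested, EPCAM had at most 1 count per library, and KRT19, CLDN3 and GRHL2 had 0 counts in every library. The 13 together came to 12.7 and 13.0 CPM (counts per library size, after TMM scaling) in control cells and 19.8 and 20.4 CPM in RUNX3 KO cells, and 3 of the 4 tested were higher there. Of 6 markers of gastric mucosa, 5 had 0 counts throughout. In contrast, all 7 genes of a fibroblast list (PDGFRA, PDGFRB, DCN, LUM, THY1, FAP and POSTN) were expressed, and 6 of them were lower in RUNX3 KO cells, with summed levels of 1540 and 1530 CPM in control cells and 1210 CPM in each RUNX3 KO library. The 6 changes ran from -2.33 for PDGFRA to -0.28 for THY1 on the log2 scale. Of all tested genes, 24.4% were called lower and 24.5% higher at an adjusted p under 0.05 (edgeR quasi-likelihood). The leukocyte and endothelial lists came to at most 1.78 CPM in any library. The 6 lower fibroblast markers moved in the direction of most of the 8 members, while FAP was nearly unchanged (-0.03 on the log2 scale). The 3 higher epithelial markers went the other way. The part of any marker in the result was not tested.

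Of the 8 members, 7 passed an adjusted p of 0.05 (edgeR quasi-likelihood) and were lower in RUNX3 KO cells, where 24.4% of the 12967 tested genes were called lower and 48.9% in either direction. None was called higher, against 24.5% of tested genes. No member was higher at an unadjusted p under 0.05 either, and DESeq2 and limma-voom called 0 members higher. COL6A2 fell by 2.89-fold, COL12A1 by 2.43-fold, COL16A1 by 1.80-fold and COL6A1 by 1.43-fold, and COL18A1 was the member that did not pass. All 8 were tested, but COL6A3 and COL13A1 passed the filter on low counts only through the control libraries. A gene with counts as low as theirs in RUNX3 KO cells could be tested only if its control counts were higher. Among the 6 members with at least 10 counts in every library, 5 were called lower, where 23.9% of 12283 genes of that kind were, and 48.8% were called in either direction. With the size criterion of the study, 2-fold or more with an unadjusted p up to 0.05, 4 members were lower and none was higher, against 4.01% and 2.11% of all tested genes. The 4 were COL6A2, COL12A1, COL6A3 and COL13A1, and 2 of them, COL6A2 and COL12A1, had at least 10 counts in every library. In bulk RNA, fewer cells that express a gene and less RNA per cell cannot be told apart.

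**Figure D1:**
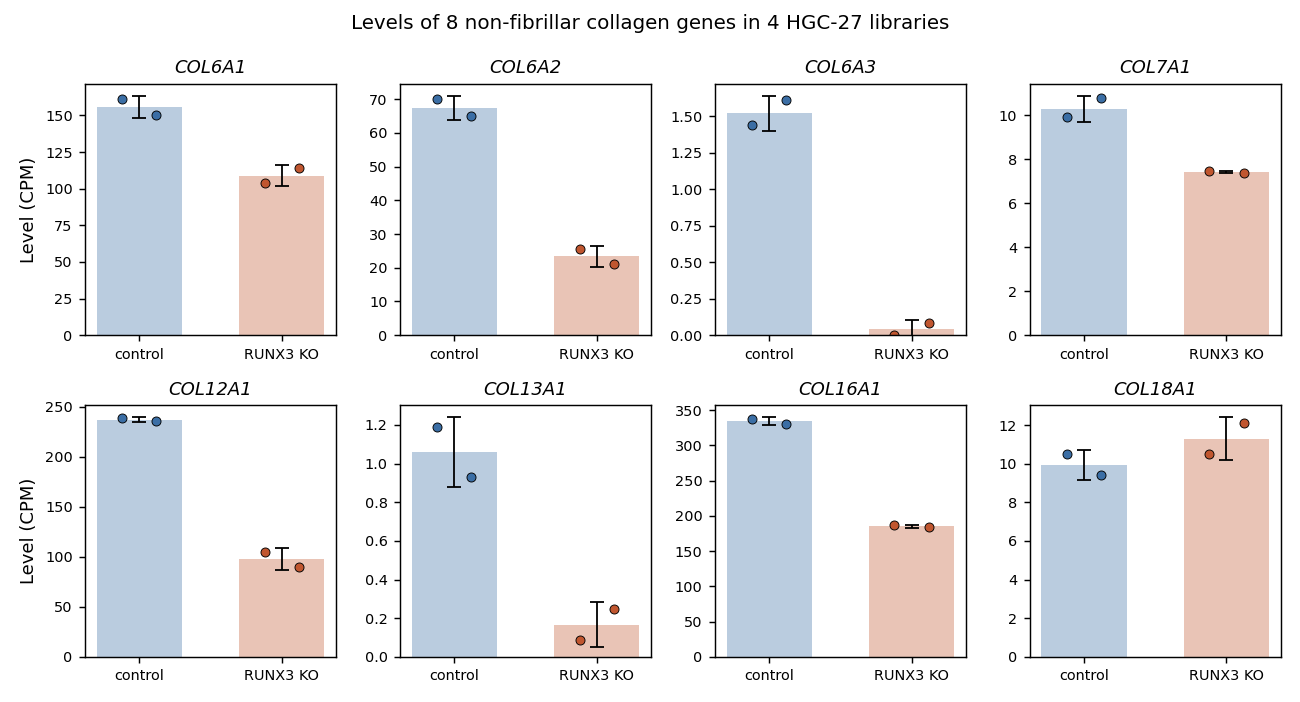
Level of each of the 8 collagen genes in CPM, with 1 panel per gene and its own vertical axis from 0. Points are single libraries, bars are means of 2 libraries and error bars are the SD, cut at 0. In 7 panels both RUNX3 KO points lie below both control points, and in the COL18A1 panel 1 control point and 1 RUNX3 KO point lie at the same height of 10.5 CPM.

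Together the 8 genes gave 9809 and 9483 reads in control cells, compared with 5195 and 5152 after RUNX3 KO. This was 15.1% and 15.2% of all reads on the collagen genes examined in control cells, and 10.7% and 10.4% in RUNX3 KO cells. The share of these collagens among collagen reads was thus lower in both RUNX3 KO libraries, while the reads on all collagen genes also went down, from 5490 and 5300 CPM to 4110 and 4140 CPM.

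The collagen VI genes were expressed very unequally. Per length of the annotated transcript, COL6A1 had a level of 37.1 ± 1.80 RPKM (reads per kilobase of transcript, scaled to library size, SD, n = 2) in control cells, COL6A2 had 19.6 ± 1.04 RPKM and COL6A3 had 0.145 ± 0.0114 RPKM. The alpha-3 chain gene was therefore far below its partners even where RUNX3 was intact. COL6A5 had 0 counts in every library, and COL6A6 had 1 count in each control library and 0 in RUNX3 KO. These 2 genes encode alternative chains of this collagen.

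COL6A1 lies on chromosome 21 from 47401684 to 47424964 (hg19, plus strand). It had 1903 and 1776 counts in control and 1231 and 1371 in RUNX3 KO, or 161 and 150 CPM against 104 and 114 CPM. Replicates differed by 2.08 times the counting error in control cells and 2.27 times in RUNX3 KO cells. The groups did not overlap here or in the other 6 members called lower, and 36.4% of all tested genes were lower without overlap. On the log2 scale the change came to -0.51, with an SE of 0.0422 and 5.46e-19 as adjusted p (edgeR quasi-likelihood, Benjamini-Hochberg), a fall of 1.43-fold. This is under the 2-fold criterion of the study, whose authors state that they saw no downregulation of COL6A1 in the knock-out cells.

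COL6A2 lies downstream on the same strand of chromosome 21, from 47518026 to 47552762. It had 827 and 767 counts in control cells and 302 and 255 in RUNX3 KO cells, or 70.0 and 65.0 CPM against 25.6 and 21.2 CPM. Both RUNX3 KO libraries were well below both controls. The RUNX3 KO libraries differed by 18.7% of their mean, which is 2.2 times the counting error. On the log2 scale the change came to -1.53, with an SE of 0.0724 and 7.76e-34 as adjusted p (edgeR quasi-likelihood, Benjamini-Hochberg), a fall of 2.89-fold, and 1.97% of all tested genes had a log2 fold change as low.

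COL6A3, on chromosome 2 from 238232646 to 238322971 (minus strand), encodes the largest of these chains. It had 17 and 19 counts in control, as against 0 and 1 in RUNX3 KO. The gene was close to the limit of detection in control cells and at that limit in RUNX3 KO cells, where a count of 0 allows up to 3. With 36 counts against 1 over the groups, the ratio of RUNX3 KO to control was 0.0275, with a 95% exact binomial interval of 0.000678 to 0.163 that covers counting error only. The edgeR quasi-likelihood model gave 1.61e-08 as Benjamini-Hochberg adjusted p.

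The promoters of COL6A2 and COL6A3 are shown because both genes fell, and that of COL18A1 because it lies on the same arm of chromosome 21 as COL6A2 and was not called. Sequences come from RefSeq (GRCh38.p14) and were placed in hg19 by exact match, in each case at 1 site. They are the 250 bases before the RefSeq start, or the part of them that is outside GENCODE exons (86 bases for COL6A3 and 221 for COL18A1), written 5′ to 3′ on the strand of the gene. Capitals mark the TATA box letters TATAAA and the GC box letters GGGCGG on either strand.
COL6A2, chr21:47517776-47518025, plus strand: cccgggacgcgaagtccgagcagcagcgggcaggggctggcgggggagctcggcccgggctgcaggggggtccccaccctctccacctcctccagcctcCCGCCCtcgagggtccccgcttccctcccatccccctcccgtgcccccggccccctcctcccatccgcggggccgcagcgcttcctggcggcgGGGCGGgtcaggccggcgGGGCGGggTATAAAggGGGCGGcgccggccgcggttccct
COL6A3, chr2:238322972-238323057, minus strand: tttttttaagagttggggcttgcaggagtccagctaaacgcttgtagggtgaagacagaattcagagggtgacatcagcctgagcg
COL18A1, chr21:46824859-46825079, plus strand: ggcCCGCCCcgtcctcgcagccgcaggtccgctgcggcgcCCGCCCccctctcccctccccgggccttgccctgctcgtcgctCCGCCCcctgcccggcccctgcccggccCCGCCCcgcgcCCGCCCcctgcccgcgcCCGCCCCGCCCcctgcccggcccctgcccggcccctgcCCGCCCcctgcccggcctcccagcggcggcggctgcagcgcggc
In the COL6A2 window, TATAAA began 32 bases before the start and GGGCGG occurred at 4 places. The COL6A3 window held neither motif in its full 250 bases. The COL18A1 window shown, the first of 2 for this gene, held no TATAAA and 9 matches of GGGCGG in its full 250 bases, some of which share bases, and was 88.4% G and C, compared with 79.6% in COL6A2 and 56.0% in COL6A3, each over 250 bases. The other COL18A1 window (chr21:46875186-46875435, plus strand) held TATAAA, beginning 204 bases before the start, and 1 GGGCGG, and was 66.4% G and C. Of all 35116 windows of this length, 10.7% held TATAAA and 42.6% held GGGCGG. The letters TGTGGT or TGCGGT, the core that RUNX factors recognise, were searched on both strands in the windows of the 7 members that the table holds, 2 of them for COL18A1, and were in none of these, whereas 16.3% of all windows held them. This says only that those letters are not in these windows. COL6A1 had no entry.

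The balance of the collagen VI genes differed between the libraries of the groups. COL6A2 had 0.435 and 0.432 reads for each COL6A1 read in control, as against 0.245 and 0.186 in RUNX3 KO. As a share of the reads per kilobase of the 3 chain genes, COL6A2 made up 34.6% and 34.4% in control cells and 23.0% and 18.5% in RUNX3 KO cells. The COL6A1 share was 65.2% and 65.3% in control cells and 77.0% and 81.5% in RUNX3 KO cells, although its own level was lower. The COL6A3 share was 0.232% and 0.279% in control cells and 0 and 0.0237% in RUNX3 KO cells. The shares did not overlap between groups for any chain, and a two-sided exact test that permutes the 4 libraries gave p = 0.33 for each, the smallest that it allows. Shares of raw reads, with no division by length, moved in the same direction.

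**Figure D2:**
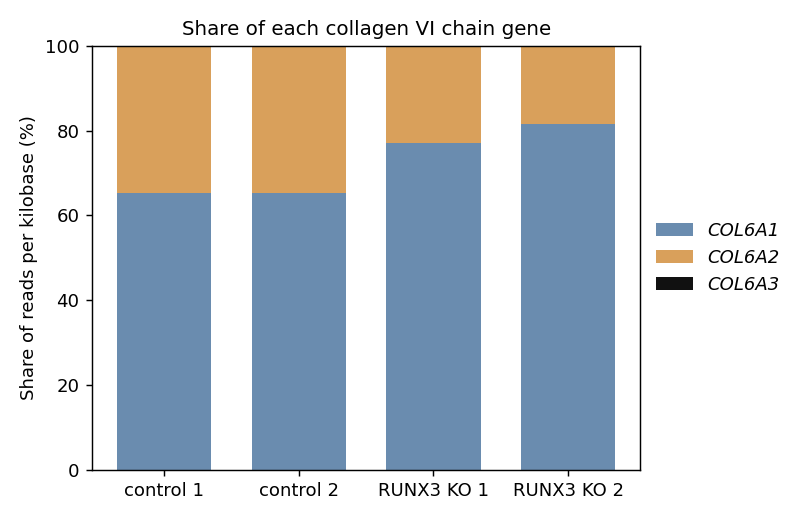
Share of each gene in the reads per kilobase of transcript summed over COL6A1, COL6A2 and COL6A3, in percent, with 1 bar per library. COL6A2 takes 34.6% and 34.4% in control and 23.0% and 18.5% in RUNX3 KO, and the COL6A3 share, at most 0.279%, is too thin to be seen.

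Among genes for receptors and partners of collagen VI, 7 of 10 listed were tested, 4 were lower, none was higher and 3 did not pass, with a median log2 fold change of -0.15 beside 0.00 for all tested genes. The shares called over all tested genes were 24.4% lower and 24.5% higher. ANTXR1, a surface receptor that binds collagen VI, had 1744 and 1677 counts in control cells and 1216 and 1239 in RUNX3 KO cells, which is -0.49 on the log2 scale (SE 0.0417, edgeR adjusted p = 2.69e-18). DCN and BGN, small leucine-rich proteoglycans that bind collagen VI, changed by -0.39 (SE 0.0398) and -0.14 (SE 0.0286) on the log2 scale. ITGA11, an integrin chain for collagens, had 10 and 12 counts in control cells and 2 in each RUNX3 KO library. Values for the main integrin beta chain and for the proteoglycan receptor NG2 did not pass, at -0.03 for ITGB1 (SE 0.0290, edgeR adjusted p = 0.365) and 0.20 for CSPG4 (SE 0.128, edgeR adjusted p = 0.184) on the log2 scale, which are named although chosen after their values were seen. ITGA11 passed the filter only through the control libraries, and 3 genes were called lower with at least 10 counts required in every library. Without RUNX3 KO replicate 1, 2 of these genes were called lower.

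COL7A1, on chromosome 3 from 48601506 to 48632762 (minus strand), encodes the chain of the anchoring fibril. It had 117 and 127 counts in control cells and 88 and 89 in RUNX3 KO cells, or 9.91 and 10.8 CPM against 7.46 and 7.40 CPM. Both RUNX3 KO libraries were lower, by a modest amount. On the log2 scale the change came to -0.48, with an SE of 0.144 and 0.00388 as adjusted p (edgeR quasi-likelihood, Benjamini-Hochberg). This call did not hold with DESeq2 (adjusted p = 0.131), nor without RUNX3 KO replicate 1 (adjusted p = 0.0800) or RUNX3 KO replicate 2 (adjusted p = 0.0880), the largest over the alternatives being 0.131, and the log2 value ran from -0.55 to -0.42.

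The complex to which collagen VII attaches in epithelia was only partly expressed. LAMB3, a laminin chain of epithelia, and COL17A1, the transmembrane collagen of hemidesmosomes, had 0 counts in every library. Of the 8 genes listed, 5 were tested, of which 1 was lower and 2 were higher, with a median of 0.25. Over all tested genes 24.4% were called lower and 24.5% higher, so the number lower was close to the background. ITGA6, which encodes the alpha chain of the hemidesmosomal integrin, rose from 144 and 174 counts to 394 and 410, a log2 fold change of 1.32 (SE 0.0952). LAMA3 changed by 0.25 (SE 0.0782) and the linker PLEC by -0.27 (SE 0.0302) on the log2 scale. Without a filter on low counts, 1 of the listed genes was called higher. With RUNX3 KO replicate 1 left out, 0 of these genes were called lower and 1 higher, with RUNX3 KO replicate 2 left out 0 were called lower, and DESeq2 called 1 higher.

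COL12A1 and COL16A1 encode collagens that sit on fibril surfaces, and both were among the well expressed members. COL12A1, (chromosome 6, 75794042 to 75915983, minus strand) reached 2819 and 2780 counts in control cells and 1243 and 1080 in RUNX3 KO cells. In CPM this was 239 and 236 against 105 and 89.8. The control libraries lay 1.35% apart, whereas the RUNX3 KO libraries differed by 15.9% of their mean, which is 3.81 times the counting error, and both lay far under either control. On the log2 scale the change of COL12A1 came to -1.28, with an SE of 0.0410 and 2.92e-46 as adjusted p (edgeR quasi-likelihood, Benjamini-Hochberg), and it lay between -1.40 and -1.17 with each library left out in turn.

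COL16A1, (chromosome 1, 32117864 to 32169920, minus strand) reached 3988 and 3892 counts in control cells and 2206 and 2208 in RUNX3 KO cells. Levels were 338 and 330 CPM against 187 and 184 CPM. The replicates of each group agreed within about the counting error, and the groups were far apart. On the log2 scale the change came to -0.85, with an SE of 0.0321 and 8.98e-41 as adjusted p (edgeR quasi-likelihood, Benjamini-Hochberg), which is under 2-fold, and 5.27% of tested genes had one as low. Per length, COL16A1 was the most abundant member in both groups, with 61.6 ± 1.04 RPKM in control cells and 34.2 ± 0.423 RPKM in RUNX3 KO cells (SD, n = 2 in each).

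COL13A1, on chromosome 10 from 71561636 to 71724031 (plus strand), encodes a membrane-spanning collagen found at cell adhesions. It had 14 and 11 counts in control cells and 1 and 3 in RUNX3 KO cells. All 4 libraries were close to the limit of detection. Over the groups, 25 counts against 4 gave a ratio of 0.159 of RUNX3 KO to control, with a 95% exact binomial interval of 0.0401 to 0.459 for counting error. The edgeR quasi-likelihood model gave 0.000188 as Benjamini-Hochberg adjusted p, and 0.0669, the largest over its alternatives, without RUNX3 KO replicate 1.

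COL18A1, on chromosome 21 from 46825080 to 46933634 (plus strand), was the exception. It had 124 and 111 counts in control cells and 124 and 145 in RUNX3 KO cells, or 10.5 and 9.41 CPM against 10.5 and 12.1 CPM. A library of each group had the same rounded level, and the groups just failed to overlap, in the direction of higher RUNX3 KO values, as did 36.3% of tested genes. On the log2 scale the change came to 0.18, with an SE of 0.132 and 0.261 as adjusted p (edgeR quasi-likelihood, Benjamini-Hochberg), with a 95% interval of -0.08 to 0.44. SLC19A1, which overlaps COL18A1 on the opposite strand, stood at 0.08 on the log2 scale (SE 0.0526, edgeR adjusted p = 0.210), which did not pass. Whether reads were counted by strand is not given in the sources used here, so that reads in the overlap are uncertain for both.

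**Figure D3:**
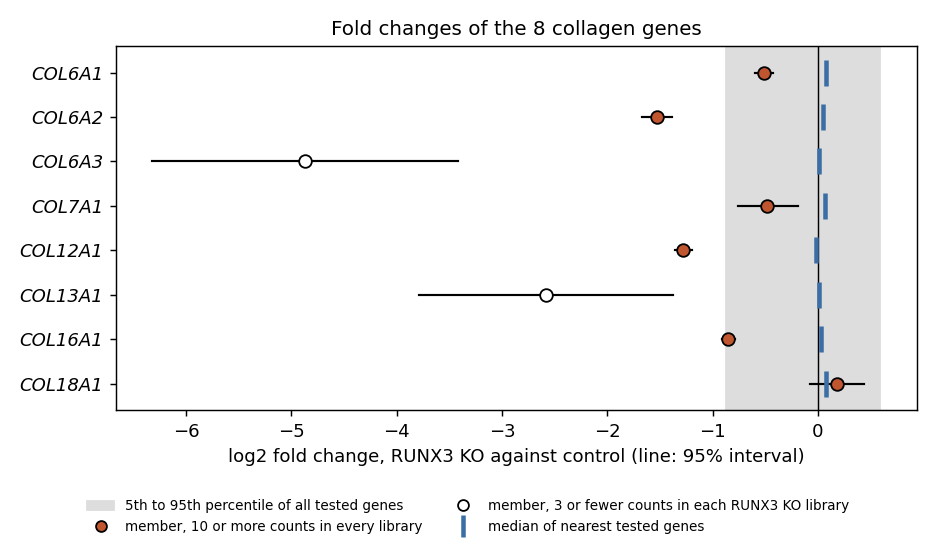
Log2 fold change of each member in RUNX3 KO against control cells, with its 95% interval as a line. Open circles mark COL6A3 and COL13A1, which had 3 or fewer counts in each RUNX3 KO library. Blue marks give the median of the nearest tested genes, between -0.02 and 0.08, and the grey band runs from the 5th to the 95th percentile of all tested genes, -0.87 to 0.59.

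Genes around the members were centred near no change. Up to 20 tested genes on each side of each member, by their order in hg19, had a median log2 fold change of 0.08 around COL6A1, 0.05 around COL6A2, 0.01 around COL6A3, 0.07 around COL7A1, -0.02 around COL12A1, 0.01 around COL13A1, 0.03 around COL16A1 and 0.08 around COL18A1. Among the 30 neighbours of COL6A2 none had a log2 fold change as low as its own. Of the 31 around COL6A1, 1 did, and this was COL6A2 itself. COL6A1, COL6A2 and COL18A1 share neighbours near the end of the long arm of chromosome 21, so these are not separate observations. With the neighbourhood median subtracted, 7 members were called lower.

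The order of the members by mean level per length was the same in both groups. In control cells COL16A1 was followed by COL6A1 and then by COL12A1 (20.4 and 20.1 RPKM) and COL6A2 (20.3 and 18.9 RPKM), whose levels overlapped. In RUNX3 KO cells COL12A1 (8.98 and 7.66 RPKM) and COL6A2 (7.43 and 6.16 RPKM) kept these places without overlapping. COL18A1 and COL7A1 came next, with 1.84 ± 0.143 and 1.12 ± 0.0652 RPKM in control cells and 2.09 ± 0.203 and 0.805 ± 0.00405 RPKM in RUNX3 KO cells (SD, n = 2 in each). COL13A1 and COL6A3 were lowest in both groups, at no more than 0.377 RPKM.

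Other collagens that do not form banded fibrils were mostly at or near 0 counts. Of 19 listed, 8 had 0 counts in every library and 7 were tested, of which 5 were lower and none was higher, with a median log2 fold change of -0.61. Of all tested genes, 24.4% were called lower and 24.5% higher. COL9A3, the most counted gene of this list, had 1675 and 1624 counts in control cells and 1466 and 1579 in RUNX3 KO cells. It was called lower by a small amount, -0.13 on the log2 scale (SE 0.0406), and is named for its level. COL15A1, the closest relative of COL18A1, had 18 and 21 counts in control cells and 2 in each RUNX3 KO library. COL14A1, a relative of COL12A1, had 18 and 28 counts against 4 and 2. COL21A1 went from 28 and 31 counts to 13 and 9, which is -1.43 on the log2 scale (edgeR adjusted p = 0.000182), and COL26A1 (listed under its former symbol EMID2) from 319 and 315 to 209 and 210, a log2 fold change of -0.61 (SE 0.0929). COL14A1 and COL15A1 passed the filter only through the control libraries, COL21A1 would not have passed on its RUNX3 KO libraries alone, and with at least 10 counts required in every library, or without RUNX3 KO replicate 2, 2 were called lower.

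The fibrillar collagens did not move in 1 direction. Of 9 tested fibrillar chains, 6 were lower and 3 higher, with a median of -0.30, where 24.4% of all tested genes were called lower and 24.5% higher. COL1A2, a chain of collagen I, had 1973 and 2030 counts in control cells and 1 and 5 in RUNX3 KO cells and so passed the filter only through control, while COL5A3 rose from 56 and 65 to 178 and 182, a log2 fold change of 1.56 (SE 0.144). Of 6 collagen IV chains, which belong to basement membranes, 2 were tested. COL4A5 had a log2 fold change of 0.46 (SE 0.0578), and COL4A2 went from 8 and 4 counts to 32 and 41, a log2 fold change of 2.57 (SE 0.369). COL4A2 passed the filter only through the RUNX3 KO libraries, where it was high, and with at least 10 counts required in every library 1 collagen IV chain was called. A difference between these classes and the 8 members was not tested.

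**Figure D4:**
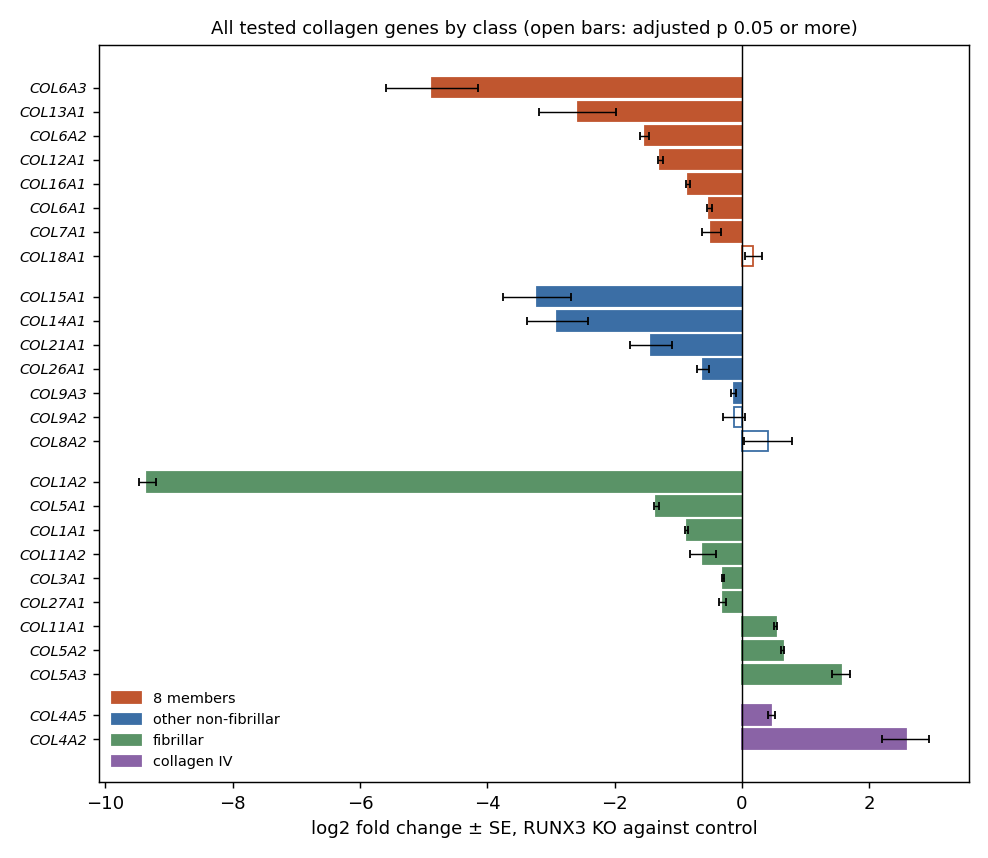
Log2 fold change ± SE in RUNX3 KO against control cells for every tested collagen gene, grouped by class, with open bars for an adjusted p of 0.05 or more. Members run from -4.87 for COL6A3 to 0.18 for COL18A1, and fitted values of genes with few counts in RUNX3 KO cells, such as COL6A3 and COL1A2, are imprecise.

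Of 20 tested genes that fold, modify and export collagen, 9 were lower, 5 were higher and 6 did not pass, with a median of -0.08. Among all tested genes 24.4% were called lower and 24.5% higher, so that the number higher was close to the background. SEC23A and SEC24D, coat proteins of the vesicles that carry cargo out of the endoplasmic reticulum, changed by -0.59 (SE 0.0452) and -0.47 (SE 0.0668) on the log2 scale. CTAGE5, a receptor for collagen export, changed by -0.30 (SE 0.0898), and P3H3, a prolyl hydroxylase family member, by 0.30 (SE 0.0462). The nearest tested genes had a median of -0.29 around SEC23A, -0.02 around SEC24D and 0.27 around P3H3, so that the P3H3 value was close to that of its neighbours. With either RUNX3 KO library left out, 5 of the genes in this list were called lower and 3 higher.

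Among 8 tested genes for enzymes and helpers of procollagen processing, 5 were lower and 2 higher, with a median of -0.23. Beside the 24.4% of all tested genes called lower and 24.5% called higher, the number higher was close to the background. The related proteinases TLL1 and TLL2 went in opposite directions. TLL1 rose from 126 and 131 counts to 270 and 303 (log2 fold change 1.14, SE 0.108), and TLL2 went from 32 and 22 to 13 and 10 (log2 fold change -1.24, SE 0.339). ADAMTS14 and ADAMTS2, which remove the amino-terminal propeptide of fibrillar collagens, changed by -1.01 (SE 0.157) and -0.72 (SE 0.109) on the log2 scale. TLL2 would not have passed the filter on its RUNX3 KO libraries alone. The number called lower went to 2 with DESeq2 and with either RUNX3 KO library left out.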

How the data were processed

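The data were RNA-seq of 2 control and 2 RUNX3 KO libraries of HGC-27 cells. The authors deposited raw read counts per gene symbol for each library, without normalization. The submitters' processing notes name HISAT2 2.1.0, HTSeq and hg19, whereas the paper's methods name STAR and featureCounts with GENCODE. The labels and the paper also give different media and RNA extraction. Rows for reads without a gene took 25.9% to 28.1% of counts per library and were left out.

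Tests used edgeR 4.0.16 under R 4.3.3, with filterByExpr (minimum count 10, minimum total 15), TMM scaling, glmQLFit and glmQLFTest with a prior count of 0.125, and Benjamini-Hochberg adjustment over 12967 genes, with no replicate block. Standard errors were derived from F as the absolute change over the root of F. The steps were tested on simulated data. DESeq2 1.42.0 and limma 3.58.1 were alternatives, beside other scalings and filters, a replicate block and each library left out. Replicates were slightly more variable than counting alone gives, at a chi-square per degree of freedom of 1.22 in control and 1.18 in RUNX3 KO cells. RPKM used the exon length of 1 annotated transcript per gene (MANE Select or canonical). Positions came from GENCODE on GRCh37, in which 21766 of 25559 symbols matched. The exact binomial intervals of COL6A3 and COL13A1 cover counting error only. The 95% intervals of the log2 fold changes were built from the standard errors.

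The members, gene lists and markers were chosen with earlier results of these data known. From each list, up to 4 genes (2 for fibrillar collagens and collagen IV) with the largest change at an adjusted p under 0.05 were named, along with listed genes that were not expressed. COL9A3, ITGB1 and CSPG4 were named outside this rule.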

Additional observations from a re-analysis of the deposited data

How the results depend on the processing

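The direction held in all 126 pairs of a member and an alternative, and 122 also kept their side of an adjusted p of 0.05, the exceptions being COL7A1 in 3 and COL13A1 in 1, as given above. Some of these pairs could not change. The threshold of 0.01 was applied to the main fit, so its directions were fixed in advance, and a prior count of 2 left the p-values as they were. A requirement of 10 counts in every library removed COL6A3 and COL13A1, which left 2 members lower by at least 2-fold in place of 4. With each library left out in turn, 5 to 7 members were called lower, 0 higher, 4 lower by at least 2-fold and 0 higher by at least 2-fold. Those fits leave 1 library in a group, which is assumed to vary like the other group. The number of members called lower was 6 with DESeq2 and 7 with every scaling, without a filter, with limma-voom, with the newer quasi-likelihood method and at an adjusted p under 0.01. A larger prior count of 2 moved the fitted log2 fold change of COL6A3 from -4.87 to -3.01. Same-numbered libraries did not deviate together over all tested genes (correlation 0.0257). Counting noise weighs heavily in this value, so it cannot exclude a pairing that affects few genes. With a replicate block 7 members were again called lower and 0 higher, with 4 lower and 0 higher by at least 2-fold. Of 224 counts of called genes in the pathway lists under the alternatives, 208 stayed within 1.5 times. Per raw read rather than per length, the mean control shares of COL6A1, COL6A2 and COL6A3 were 69.3%, 30.0% and 0.680%. Depth limits COL6A3 and COL13A1, whose few counts do not allow a precise fold change.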
